A study of Mus musculus with 6 samples.

Results

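The wound keratins Krt6a, Krt6b, Krt16 and Krt17 were described in newborn mouse epidermis in which Hnrnpu, a gene for a nuclear RNA-binding protein, was targeted for deletion. They are 4 of the 12894 genes in the deposited table, taken by name as the keratins that healthy epidermis holds at low level and wounded epidermis makes in quantity. They were chosen by name after their normalized counts were seen to differ between labelled knockout and control, the comparison described here, so their levels and differences are given as a description, with no test. Bulk RNA sequencing, which reads the transcripts of all cells of a sample together, covered 3 control and 3 Hnrnpu knockout libraries from C57BL/6 epidermis at postnatal day 0. Control 1 has the genotype label Wild type, and controls 2 and 3 have the label Heterogenous, read here as heterozygous. The knockout was made with a loxP-Cre system, and the Cre driver is not given in the sources used here. Each title carries its own animal number, so the libraries were read as separate animals, although no label states it.

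Keratins are the intermediate filament proteins of epithelial cells, and each filament is built from pairs of 1 acidic (type I) and 1 basic (type II) keratin. Basal epidermal cells make Krt14 with Krt5 and differentiating cells make Krt10 with Krt1. Krt6a and Krt6b (type II) and Krt16 and Krt17 (type I) are made in hair follicles, nails and ridged skin, and are switched on in keratinocytes between follicles soon after injury and in inflamed or hyperproliferative skin.

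The transcripts themselves decide how well the members can be told apart, so stretches of their coding sequence are shown first. In the GENCODE M21 annotation (GRCm38), Krt6a and Krt6b lie beside Krt5 on the minus strand of chromosome 15, with 9 exons each. Krt16 and Krt17 lie on the minus strand of chromosome 11, with 8 exons each. Krt6a and Krt6b are near copies: 97.8% of their aligned coding bases are the same, 37 of 1662 differ, and the longest identical run is 280 bases. The 60 coding bases that differ most (bases 817 to 876, counted from the start codon) hold 10 differences, shown in capitals.
Krt6a: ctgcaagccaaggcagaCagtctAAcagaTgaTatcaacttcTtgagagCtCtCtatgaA
Krt6b: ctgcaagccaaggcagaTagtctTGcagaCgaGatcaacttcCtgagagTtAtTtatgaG

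By contrast, the first 200 bases of their identical run (bases 34 to 233 of Krt6a) cannot assign a read to either gene.
Krt6a and Krt6b: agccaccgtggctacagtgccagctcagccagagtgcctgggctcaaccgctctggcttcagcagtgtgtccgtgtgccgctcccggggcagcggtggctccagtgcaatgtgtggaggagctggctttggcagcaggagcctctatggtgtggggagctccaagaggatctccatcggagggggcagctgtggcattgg

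Krt16 and Krt17 are more distant, with 77.5% identical coding bases and a longest identical run of 55 bases. Their most different 60 bases aligned without gaps (bases 949 to 1008 of Krt16 and 862 to 921 of Krt17) hold 25 differences, again in capitals.
Krt16: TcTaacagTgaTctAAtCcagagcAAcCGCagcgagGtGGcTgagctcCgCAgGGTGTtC
Krt17: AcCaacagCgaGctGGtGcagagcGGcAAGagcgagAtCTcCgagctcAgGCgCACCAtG

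Krt16 is closer to Krt14, the basal type I keratin, with 86.0% identical coding bases. Bases 306 to 439 of Krt14 are also found unchanged in Krt16.
Krt14 and Krt16: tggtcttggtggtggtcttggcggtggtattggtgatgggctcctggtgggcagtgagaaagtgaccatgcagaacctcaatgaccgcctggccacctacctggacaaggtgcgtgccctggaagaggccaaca

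**Figure D1:**
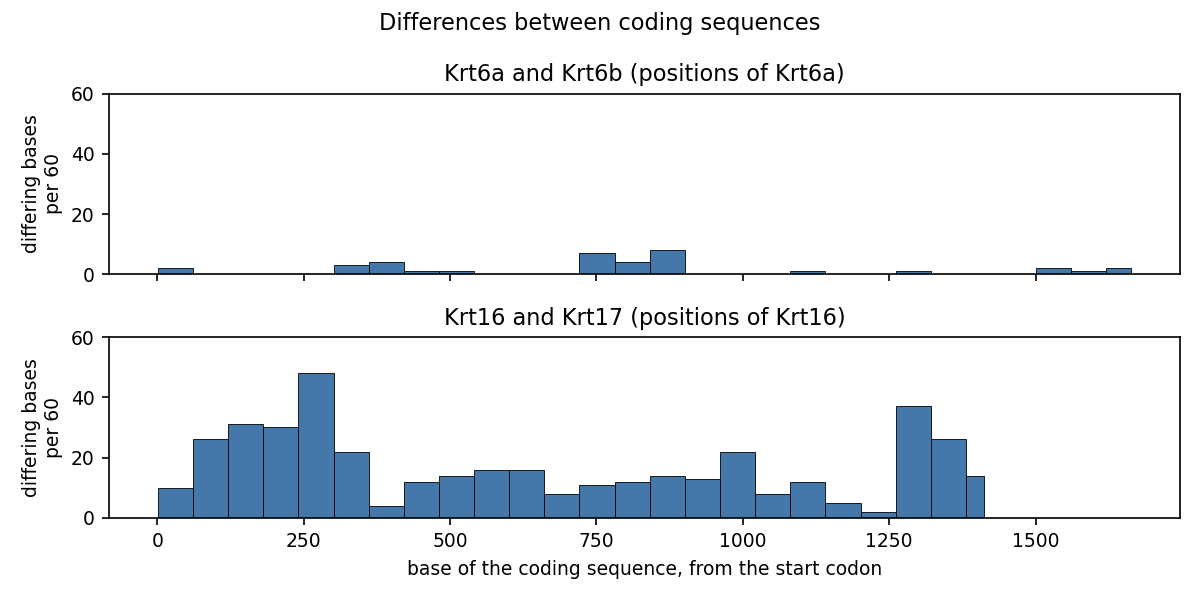
Differing or gapped bases per 60 coding bases (vertical axis) along the coding sequence in bases (horizontal axis), with Krt6a against Krt6b in one panel and Krt16 against Krt17 in the other. Krt6a and Krt6b reach at most 8 in a window, while Krt16 and Krt17 reach 48 where gaps are counted.

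Of all 50-base windows in the Krt6a transcript, 49.5% also occur in another transcript of the annotation, and 43.6% of all its windows occur in Krt6b. The share was 50.1% for Krt6b, 37.6% for Krt16 and 4.0% for Krt17. Krt16 shared 12.4% of its windows with Krt14 and 25.2% with the gene model Gm11597, which was not analysed here. The sources used here do not give read length, strand or the handling of reads that match several genes. The split between Krt6a and Krt6b is therefore uncertain, and the Krt17 value rests on the most distinctive sequence of the 4. Krt6a also shared 6.7% of its windows with Krt5, and Krt6b shared 2.2%. In controls 1 to 3 Krt5 stood at 20825, 13693 and 7878. The part of Krt5 reads in the low control values of both Krt6 genes was not tested. Gm5414, a model that shares 3.6% of Krt6a windows, was listed at 0 in every control, against 103, 225 and 42.1 in those labelled knockout 1 to 3. Gm49428, antisense to Krt6a, was under 1 in every control and at 12.1, 59.6 and 2.74 in the libraries labelled knockout, and without strand its reads cannot be told apart from those of Krt6a.

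Values are normalized counts as deposited, with sums of 6850663 to 7453638 in controls and 8191409 to 10987666 in the libraries labelled knockout, and an estimated 6460000 to 9120000 reads per library. The targeted gene did not check the labels. In controls 1 to 3 Hnrnpu stood at 1450, 1318 and 1160, against 1565, 1342 and 1036 in labelled knockout 1 to 3 (log2 difference −0.01 ± 0.20 SE, limma adjusted p = 0.976), and where its reads fall against the deleted part is not known here. "The libraries labelled knockout" is used for this reason throughout. Sex also differed: Xist was at 3.27 or below in all controls while labelled knockout 1 to 3 had 1.87, 5656 and 4758, and Ddx3y was listed at 0 in labelled knockout 2 and 3. The library labelled knockout 1 had low Xist and a Ddx3y level of 323, which is present but below the controls (544 to 646). Values limited to it are given for the members, and for lists where it moved a count by over 1.5 times or ended the call of a gene named with its difference.

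Krt6a, the more abundant of the 2 Krt6 genes in the libraries labelled knockout, stood at 71.5, 125 and 22.7 normalized counts in controls 1 to 3. In the libraries labelled knockout 1 to 3 it stood at 130630, 308022 and 84076. The groups did not overlap, and the lowest labelled knockout value was 670 times the highest control value. The log2 difference was 11.29 ± 0.63 (SE, n = 3 and 3), the second largest of the 12872 genes tested. The control values rest on an estimated 95, 142 and 28 reads, so their order carries counting error. Per kilobase of transcript, Krt6a ranked between 6006 and 10706 among all genes in controls against 6, 2 and 9 in labelled knockout 1 to 3.

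Krt6b, its near copy, stood at 123, 62.4 and 37.0 in controls 1 to 3, against 98880, 271337 and 47771 in labelled knockout 1 to 3. Again every labelled knockout library lay far above every control, the smallest gap being 390-fold. The log2 difference was 10.67 ± 0.62 (SE, n = 3 and 3). Control 1 was the highest control for Krt6b while control 2 was the highest for Krt6a, at depths of 45 to 162 estimated reads for Krt6b.

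Krt16, the usual type I partner of the Krt6 proteins, was already present in controls, at 1916, 874 and 394. The libraries labelled knockout 1 to 3 held 83259, 195664 and 50945. The lowest of these was 26.6 times the highest control value, and the log2 difference was 6.75 ± 0.62 (SE, n = 3 and 3). Controls differed among themselves by 4.86 times from the highest to the lowest, a wider spread on the log2 scale than that of 98.1% of tested genes. Krt14, in which 12.4% of Krt16 windows occur, fell in the same order in controls 1 to 3 (10309, 5712 and 3208). Its part in the control values of Krt16 was not tested.

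Krt17, a type I keratin of follicles and other skin appendages that can also pair with Krt6, stood at 1166, 1286 and 1233 in controls. It stood at 22268, 68115 and 20097 in the libraries labelled knockout 1 to 3. These are the smallest rise and the tightest control values among the members, with a log2 difference of 4.67 ± 0.42 (SE, n = 3 and 3) and a smallest gap of 15.6-fold. Only 7.51% of tested genes had a smaller control SD on the log2 scale. In controls Krt17 per kilobase ranked 454, 456 and 473, above Krt16 in controls 2 and 3 and below it in control 1, where Krt16 ranked 258.

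**Figure D2:**
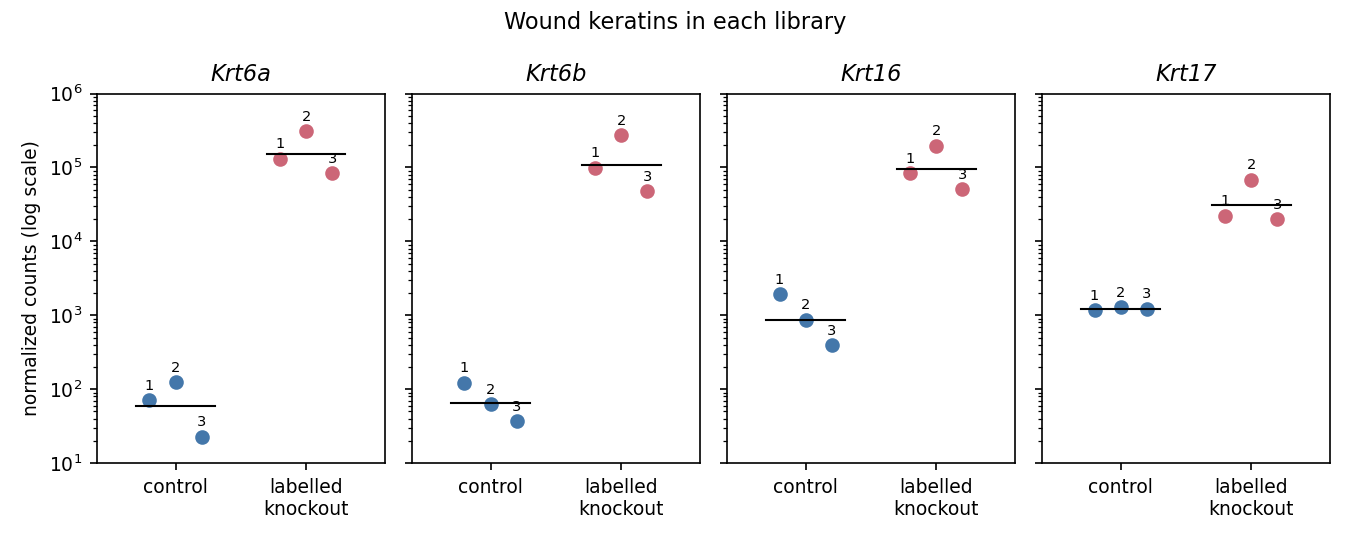
Normalized counts on a log axis (vertical) of Krt6a, Krt6b, Krt16 and Krt17 in each of the 3 control and 3 labelled knockout libraries, 1 point per library, with the mean of the log2 values as a line. Each gene's labelled knockout points lie above all its control points, and Krt17 has the closest control points, at 1166 to 1286.

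The 4 genes were placed apart in this way by their choice. Over all tested genes, 25.8% had all labelled knockout values above all control values, 14.9% were higher by 2-fold or more and 1.2% by 16-fold or more. In all 4 genes the library labelled knockout 2 was the highest and 3 the lowest. That order held in 19.1% of all tested genes and in 34.6% of those whose labelled knockout values all lay above control values. Between libraries of adjacent animal numbers, control against labelled knockout 1, 2 and 3 in turn, Krt6a differed by 1827, 2455 and 3699 times, Krt6b by 806, 4347 and 1292 times, Krt16 by 43.5, 224 and 129 times and Krt17 by 19.1, 53.0 and 16.3 times. The library labelled knockout 1 alone against the 3 controls gave log2 differences of 11.08, 10.53, 6.58 and 4.18 in the same gene order. In bulk tissue, more cells that hold a transcript and more of it per cell cannot be told apart.

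The members also stood in a different proportion to each other. The ratio of Krt6a to Krt16 normalized counts, not corrected for length and so compared across libraries only, was 0.0373, 0.144 and 0.0577 in controls 1 to 3. It was 1.57, 1.57 and 1.65 in labelled knockout 1 to 3. On the log2 scale the ratio was −3.86 with an SD of 0.98 in controls and 0.68 with an SD of 0.04 in labelled knockouts, so this ratio varied more among the former. The ratio of the near copy, Krt6b to Krt16, varied alike in both, at −3.71 with an SD of 0.30 in controls and 0.21 with an SD of 0.28 in labelled knockouts. Krt16 over Krt17 was 1.64, 0.679 and 0.319 in controls and 3.74, 2.87 and 2.53 in the libraries labelled knockout, without overlap. Krt6a over Krt6b was 0.583, 2.01 and 0.615 in controls and 1.32, 1.14 and 1.76 in the libraries labelled knockout, where the groups overlapped and the uncertain split between the copies applies.

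The share of the keratin pool taken by the wound keratins shows how large these values are. The 4 genes made up 0.0478, 0.0320 and 0.0226% of all normalized counts in controls 1 to 3, a mean of 0.0342 ± 0.0127% (SD, n = 3). They made up 4.09, 7.67 and 2.40% in the libraries labelled knockout 1 to 3, a mean of 4.72 ± 2.69% (SD, n = 3). Of the counts of all 22 keratin genes analysed, 10 of type I and 12 of type II, the 4 held 0.544, 0.371 and 0.274% in controls and 42.8, 59.0 and 23.7% in the libraries labelled knockout. The keratins together were 8.25 to 8.80% of a control library and 9.55, 13.0 and 10.1% of the libraries labelled knockout. Keratin sums here cover only the genes found in the table. Of 50 other keratins sought, 18 were found, and Krt2, Krt8 and Krt18 were among those absent.

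Per kilobase, both keratin types stood higher in the libraries labelled knockout. The sums of all normalized counts were also higher there, at 8191409 to 10987666 against 6850663 to 7453638 in controls. The values per kilobase are not scaled for that. Type I keratins summed to 137268, 146811 and 141350 normalized counts per kilobase in controls and 179930, 335069 and 183206 in the libraries labelled knockout. Type II keratins summed to 130721, 133200 and 130455 in controls and 193024, 362372 and 208562 in the libraries labelled knockout. The type II to type I ratio of these sums stayed within 0.907 to 0.952 in controls and 1.07 to 1.14 in the libraries labelled knockout, while the same ratio for the wound keratins alone was 0.0253 to 0.0598 in controls and 1.28 to 1.52 in labelled knockouts. Wound keratins were thus mostly of type I in controls, and somewhat more of type II than of type I in the libraries labelled knockout. They were 0.741 to 1.44% of type I and 0.0203 to 0.0660% of type II in controls, against 37.5, 50.4 and 24.8% of type I and 52.6, 70.8 and 27.9% of type II in labelled knockout 1 to 3.

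**Figure D3:**
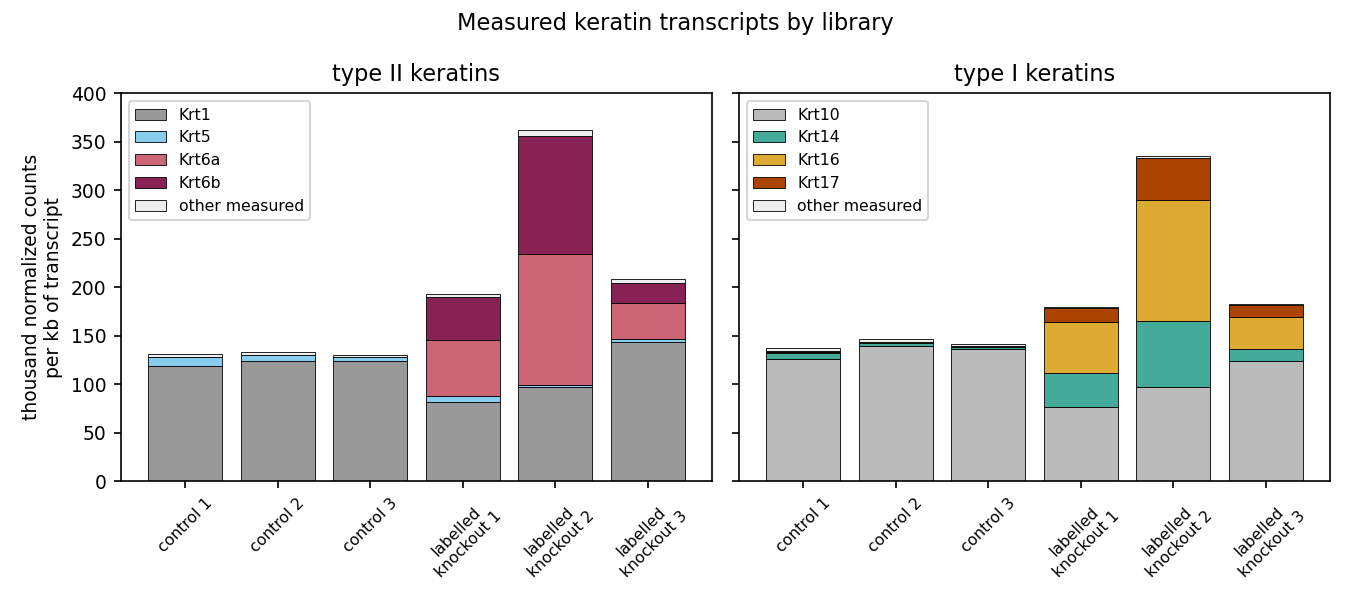
Stacked bars of normalized counts per kilobase of transcript (vertical axis, linear and from 0), for each named keratin in each library (horizontal axis), type I in one panel and type II in the other. Krt10 holds 91.8 to 96.4% of type I in controls and 28.9 to 67.5% in the libraries labelled knockout, where Krt16, Krt17 and Krt14 fill the rest, and Krt1, Krt6a and Krt6b show the like for type II.

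Genes other than the members were tested with limma on log2(value + 1) over all 12872 tested genes, with Benjamini-Hochberg adjustment and a threshold of 0.05. By this test 17.7% of all tested genes were higher in labelled knockouts than in controls and 15.9% were lower. The median log2 difference was −0.02. The number called, 4328 here, was 2631 to 4464 with 1 library left out and 5781 with a block for adjacent animal numbers. It was 4505 with equal library totals and 4430 with quantile normalization. List counts in such runs are to be read beside these. With the library labelled knockout 1 alone, that group holds 1 library. A call lost there cannot be told apart from the effect of having fewer libraries. Across the 9 lists of keratins, inducers and partners described next, which hold 171 tested genes, 64 were higher (37.4%) and 22 lower (12.9%). Of the 64, 3 reached the filter only through the labelled knockouts, and without the 4 list genes of that kind 61 of 167 were higher and 22 lower. The split of the 171 moved to 53 higher and 31 lower with equal library totals, which shift the median of all tested genes to −0.36, and to 55 and 35 with quantile normalization. Without control 3, 14 were lower.

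Among the 18 other keratins, 4 were higher (Krt14, Krt73, Krt75, Krt80), 4 lower (Krt12, Krt15, Krt77, Krt79) and 10 did not pass, with a median of −0.43. Krt75, at 0, 15.9 and 0 in controls 1 to 3, reached the filter only with labelled knockout libraries. With equal library totals, with a block for adjacent animal numbers, or with the library labelled knockout 1 alone, 7 were lower. Krt79 did not pass without any 1 control or without labelled knockout 1. The basal type I keratin Krt14 stood at 10309, 5712 and 3208 in controls and 59688, 115333 and 21768 in the libraries labelled knockout (3.21 ± 0.61, limma adjusted p = 0.00547). All of the latter lay above all controls, and 11.4% of the Krt14 transcript's 50-base windows also occur in Krt16, whose part in this rise was not tested. Its type II partner Krt5 did not pass, at 20825, 13693 and 7878 against 15413, 5982 and 6463 (−0.64 ± 0.44, limma adjusted p = 0.282, 95% interval −1.64 to 0.36), but was lower with the block (limma adjusted p = 0.0374).

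The basal keratin Krt15 went the other way, from 4009, 3406 and 1833 in controls to 50.5, 5.10 and 52.1 in the libraries labelled knockout (−6.84 ± 0.76, limma adjusted p = 6e-04). The groups were far apart, in the direction opposite to Krt14. The suprabasal pair remained abundant. Krt1 stood at 291616 to 304552 in controls and 199681 to 352515 in the libraries labelled knockout (−0.23 ± 0.30, limma adjusted p = 0.569). Krt10 stood at 263804 to 291291 and 159412 to 258828 (−0.46 ± 0.28, limma adjusted p = 0.219), and was lower with equal library totals (−0.81, limma adjusted p = 0.0166) and with the library labelled knockout 1 alone (−0.81, limma adjusted p = 0.0463). Krt73, a keratin of the hair follicle inner root sheath, was higher (3.33 ± 0.68) and Krt77, a keratin of sweat ducts and of mouse epidermis, was lower (−3.09 ± 0.63).

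**Figure D4:**
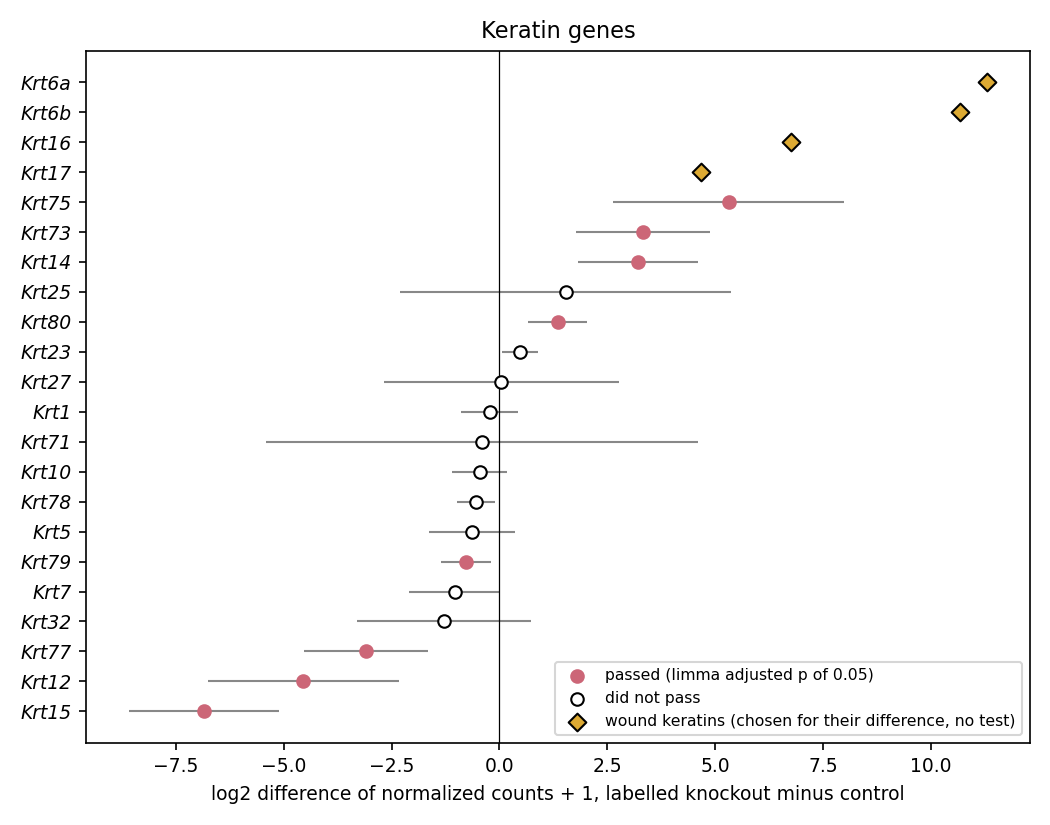
Log2 difference, labelled knockout minus control (horizontal axis), for each keratin gene analysed, with its 95% interval as a bar for the 18 other keratins. Krt6a, Krt6b, Krt16 and Krt17, chosen for this difference, stand at 4.67 to 11.29, and the other 18 keratins have a median of −0.43.

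Ligands of the EGF receptor are known inducers of Krt6 and Krt16 in keratinocytes. Of 10 tested genes for ligands and receptors, 6 were higher and 2 lower, with a median of 1.56. Epgn, which encodes epigen, stood at 5.29, 14.2 and 7.36 in controls and 1809, 7437 and 1198 in the libraries labelled knockout (8.09 ± 0.63, limma adjusted p = 0.000125). The ligand genes Areg (5.19 ± 0.51) and Ereg (4.49 ± 0.51) were also higher, each with no overlap between groups, as were Hbegf (1.65 ± 0.37) and Tgfa (1.49 ± 0.28). The receptor Egfr stood at 1697, 1249 and 1248 and then at 4785, 6128 and 2719 (1.64 ± 0.30, limma adjusted p = 0.0047). The related receptors Erbb2 (−1.45 ± 0.29) and Erbb3 (−0.74 ± 0.20) were lower. Without control 1 or control 2, Erbb3 did not pass, and the lower count was 1 without control 1. With the library labelled knockout 1 alone, Hbegf did not pass (1.01, limma adjusted p = 0.122).

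AP-1 transcription factors act downstream of that receptor and bind keratin gene promoters. Of 9 subunit genes, 5 were higher and 0 lower, with a median of 0.98. Fosl1, an AP-1 subunit made at wound edges, stood at 45.1, 65.8 and 45.2 and then at 536, 1387 and 321 (3.57 ± 0.47, limma adjusted p = 0.0012). Maff (1.82 ± 0.34), Junb (1.10 ± 0.24) and Jund (0.71 ± 0.21) also passed. Jund lost its call in every run without 1 library other than labelled knockout 1. The count of higher subunits fell to 3 without control 2, control 3, labelled knockout 2 or labelled knockout 3, to 3 with equal library totals, to 2 with quantile normalization and to 1 with the library labelled knockout 1 alone, and Fos, Fosl2 and Atf3 did not pass in the fit of all libraries. With quantile normalization Fosl2 was lower (−0.81, limma adjusted p = 0.044).

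Interleukin 1 family cytokines and the NF-kB and STAT3 pathways induce wound keratins in inflamed skin. Of 29 such genes, 15 were higher and 4 lower, with a median of 0.73. Without control 1 the higher count was 8, without control 3 it was 9, and with the library labelled knockout 1 alone it was 10. Il33, an alarm cytokine of epithelia, stood at 9.82, 7.08 and 0.817 in controls and 307, 1637 and 427 in the libraries labelled knockout (6.79 ± 0.78, limma adjusted p = 0.000648). Il1a stood at 56.2 to 63.8 and then at 577 to 1038 (3.70 ± 0.24, limma adjusted p = 6.48e-05). The interleukin 36 genes Il1f6 (2.11 ± 0.28) and Il1f8 (1.69 ± 0.19) were higher. Receptor genes made up the lower group: Il20rb (−2.74 ± 0.73), Il22ra1 (−1.45 ± 0.26), Il6ra (−1.45 ± 0.25) and Lifr (−3.99 ± 0.74). Il20rb did not pass without any 1 control or without labelled knockout 1, with limma adjusted p of 0.052 to 0.0616, and Lifr did not pass with the library labelled knockout 1 alone (−2.45, limma adjusted p = 0.0724).

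The oxidative stress factor NRF2, encoded by Nfe2l2, is a known activator of Krt6a, Krt16 and Krt17. Of 13 genes of this pathway, 5 were higher and 1 lower, with a median of 0.53. The cystine transporter Slc7a11 stood at 468, 198 and 211 and then at 4065, 5211 and 2995 (3.88 ± 0.35, limma adjusted p = 0.000222). Hmox1 (2.65 ± 0.19), Txnrd1 (2.0 ± 0.29) and Nfe2l2 itself (1.56 ± 0.23) were higher. Keap1, whose product marks NRF2 for degradation, stood at 235 to 283 in controls and 89.9 to 137 in the libraries labelled knockout (−1.15 ± 0.23, limma adjusted p = 0.00654).

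Glucocorticoid, retinoid and thyroid hormone receptors repress wound keratin genes, and hedgehog signalling, Sox9 and other factors act on them in follicles. Of 26 such regulators, 4 were higher and 8 lower, with a median of −0.28. The lower count was 5 without control 1 and 4 without control 2, without control 3 or with the library labelled knockout 1 alone. The thyroid hormone receptor Thrb stood at 211, 200 and 298 in controls and 15.9, 22.1 and 46.6 in the libraries labelled knockout (−3.14 ± 0.39, limma adjusted p = 0.00092). The glucocorticoid-induced gene Fkbp5 was lower (−1.97 ± 0.31), whereas the glucocorticoid receptor Nr3c1 did not pass, at 754 to 1005 and 733 to 1019 (−0.08 ± 0.20, limma adjusted p = 0.781). Zfp36, whose product destabilises cytokine messages (1.73 ± 0.27), and the zinc finger factor Klf6 (1.69 ± 0.29) were higher.

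Filaments are anchored at desmosomes and regulated by chaperones and 14-3-3 proteins. Of 31 genes of this kind, 9 were higher and 0 lower, with a median of 0.16. The desmosomal cadherin Dsc2 stood at 31.0 to 40.8 and then at 369 to 842 (3.82 ± 0.33, limma adjusted p = 0.000192). The basal cadherin Dsg3 stood at 1097, 718 and 272 and then at 6033, 7736 and 2730 (3.07 ± 0.53, limma adjusted p = 0.00383). Tgm1, which cross-links the cornified envelope (1.71 ± 0.27), and the chaperone Hspa8 (1.56 ± 0.26) were higher. The lower count was 5 with equal library totals, 8 with quantile normalization, 2 with the block, 2 with the library labelled knockout 1 alone and 1 without labelled knockout 3.

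Other genes of wound edges and activated keratinocytes were higher in 16 of 29 cases and lower in 2, with a median of 2.42. S100a8, S100a9, Defb4 and Defb14 were at or below 1 in every control and so were tested only because they were high in the labelled knockouts. Without these 4, 13 of 25 were higher and 2 lower, with a median of 1.81. Sprr1b, a cornified envelope precursor, stood at 265, 306 and 128 and then at 23147, 54084 and 22623 (7.12 ± 0.41, limma adjusted p = 3.79e-05). The prostaglandin synthase gene Ptgs2 stood at 8.31, 37.2 and 22.1 and then at 1283, 10179 and 1459 (7.05 ± 0.80, limma adjusted p = 0.000612). Sprr1a (5.62 ± 0.51) and the gap junction gene Gjb2 (2.80 ± 0.32) were also higher, without overlap. S100a8, often made together with Krt6 and Krt16 in inflamed epidermis, was listed at 0 in every control and at 403, 4682 and 65.4 in the libraries labelled knockout. The protease inhibitor Stfa3 was lower (−1.29 ± 0.18), and Plau was lower (−1.16 ± 0.37) but did not pass without control 1, control 3 or labelled knockout 2, or with the library labelled knockout 1 alone.

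Keratin 17 has been described to act on growth and gene regulation through partners. Of 7 tested genes of that kind, 0 were higher and 2 lower, with a median of −0.31. Mtor, a growth kinase, stood at 492, 566 and 705 and then at 294, 211 and 370 (−1.03 ± 0.25, limma adjusted p = 0.0149), and did not pass without control 3. The hedgehog factor Gli2 was lower (−1.31 ± 0.42, limma adjusted p = 0.0422), and did not pass without any 1 of the controls or with the library labelled knockout 1 alone. Hnrnpk, another nuclear RNA-binding protein, stood at 1609 to 1863 and 1727 to 2574 (0.21 ± 0.19, limma adjusted p = 0.421).

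**Figure D5:**
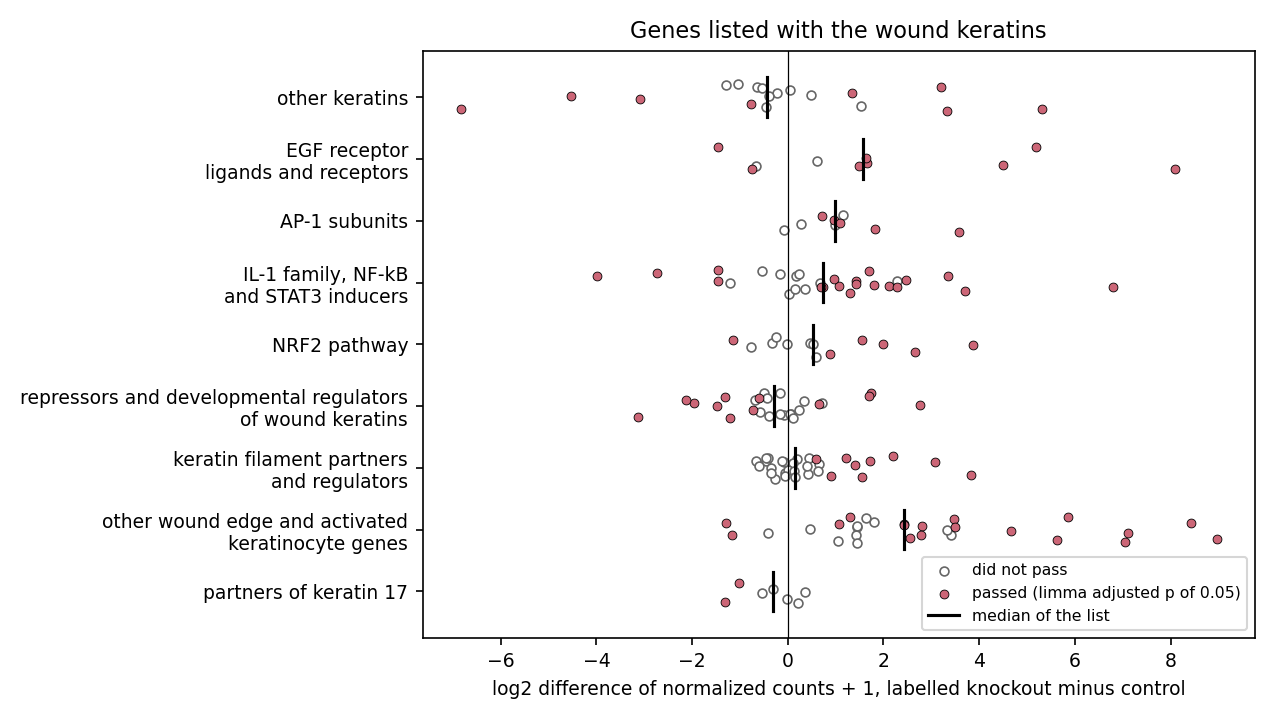
Log2 differences, labelled knockout minus control (horizontal axis), of every tested gene in each list, with filled points for genes that passed limma at an adjusted p of 0.05 and a line at each list's median. The medians run from −0.43 for other keratins to 2.42 for the other wound edge genes, against −0.02 for all tested genes, and the last of these is 1.81 without the 4 genes tested only through the labelled knockouts.

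The genes whose profiles over the 6 libraries were most like those of the members were found by the root mean square difference of centred log2 values. The nearest to Krt6a were 2310046K23Rik (0.39), the cytokine gene Tslp (0.58), Krt6b (0.68), the amino acid transporter Slc7a3 (0.97) and Sprr2b (1.35). For Krt6b they were Slc7a3 (0.59), Krt6a (0.68), Tslp (0.83), 2310046K23Rik (0.84) and Sprr2f (1.19). Both Krt6 genes had 2310046K23Rik, Tslp and Slc7a3 among their neighbours beside each other. Slc7a3, Tslp and Sprr2f were under 1 in every control and so were tested only because they were high in the labelled knockouts. Their nearness is given as a description only. Tslp stood at 0.885 or below in controls and at 2517, 6315 and 2697 in the libraries labelled knockout.

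Krt16 was closest to Il33 (0.49), Sprr1b (0.52), Dhrs9 (0.54), Sprr2h (0.59) and Eda2r (0.63), and Krt17 to the late cornified envelope genes Lce3c and Lce3e (0.21 each), Mirt1 (0.34), the melanocyte gene Tyrp1 (0.34) and Gm39139 (0.35). Gm39139, at 0.817 or below in every control, was likewise tested only through the labelled knockouts. Ranking by Pearson correlation over the same 6 libraries shared 0 of the 5 genes for each member. Between 782 and 1160 genes reached a correlation of 0.95 with a given member, since all points of such a profile share the difference between groups.

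The labelled tissue was checked against marker genes. Of 10 markers of keratinocytes between follicles, 2 were higher (Krt14, Cdh1) and 0 lower, and Cdh1 did not pass without any 1 control. The higher count was 1 and the lower count 2 with equal library totals, 1 and 3 with quantile normalization, where Cdh1 was at −0.02, and 1 and 1 with the library labelled knockout 1 alone. With the block 2 were higher and 2 lower. All 10 were present, and the markers summed to 722109 to 764266 in controls and 562326 to 803336 in the libraries labelled knockout. Hair follicles hold wound keratins in healthy skin. Of 13 tested follicle markers, 3 were higher (Krt73, Krt75, Sox9) and 1 lower (Tchh), with sums of 2878 to 3054 and 1763 to 4108. Shh, Lhx2 and Foxn1 did not pass. Krt75 reached the filter only with labelled knockout libraries. The lower count was 2 without labelled knockout 1 or without labelled knockout 3, 2 with quantile normalization, and 3 both with equal library totals and with the block. Gata3 and Lef1 passed in these last fits, with limma adjusted p of 0.0307 and 0.0451 for equal totals and 0.00325 and 0.00179 for the block. Of 4 periderm and simple epithelium markers, 1 was higher and 2 lower, with sums of 2005 to 3023 and 2531 to 7542. The higher one, Cldn4, passed in no run that left out a library other than labelled knockout 1, nor with equal library totals, with quantile normalization or with the library labelled knockout 1 alone.

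Markers of other cell types moved with the wound keratins in part. All 8 tested melanocyte markers were higher, with sums of 478 to 711 in controls and 3104 to 4978 in the libraries labelled knockout, and Tyrp1 stood at 24.5 to 41.6 and then at 495 to 1062. Of 5 dermal fibroblast markers, 3 collagen genes were higher (Col3a1 3.81 ± 0.65) and Postn was lower (−4.16 ± 0.48), with sums of 1308 to 2634 and 509 to 692. With the library labelled knockout 1 alone the higher count was 1, and Col3a1 (3.53, limma adjusted p = 0.0577) and Col1a1 (3.01, limma adjusted p = 0.148) did not pass. Of 6 leukocyte markers, 1 was higher and 1 lower, with sums of 226 to 401 and 130 to 1011, and the higher, Lyz2, did not pass without any 1 library. The lower, Cd3e, did not pass without control 1 or control 2, and the lower count was 2 without labelled knockout 2 or with the library labelled knockout 1 alone. The 1 endothelial marker, Pecam1, stood at 2.66 to 5.72 and 6.54 to 59.5 and did not pass. The part of these cells in the wound keratin values was not tested.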

How the data were processed

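RNA from 6 epidermis libraries (3 control, 3 labelled knockout) was analysed from the table of normalized counts that the authors deposited, a signal of 0 or more. TopHat2 2.1.0, Partek 9.0.20.0202 and mm39 are named in the submitters' processing notes, without roles, and how reads were counted and normalized is not given there. Dividing by the step that 1 read is worth (0.755 to 1.70) gave estimated reads, but only 81.0 to 83.4% of values of up to 20 reads were whole within 0.02, so no count model was used. Symbols were matched by Ensembl ID for 12771 genes, and 123 had none.

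Genes above 1 in at least 3 libraries (12872) were fitted as log2(value + 1) with limma 3.58.1 in R 4.3.3 (eBayes with trend). Fold changes on this scale understate those of low genes, and errors are moderated SE. The fit was tested on simulated data. P-values measure the spread between these libraries only. Levels per kilobase used the longest protein-coding transcript, and coding sequences (GENCODE M21, GRCm38) were aligned with Biopython 1.88. No coordinates are given because builds differ.

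The members and the lists were chosen with earlier results of these data known. Named genes were the members, Hnrnpu, up to 4 genes per list by smallest adjusted p, or the 2 most abundant where no gene passed, Krt1, Krt5, Krt10, Krt14 and the 5 nearest profiles. Others (Gm5414, Gm49428, Xist, Ddx3y, further called keratins and list genes, S100a8, Nr3c1, Hnrnpk) were named after their values were seen. Libraries of adjacent animal numbers deviated together (correlations 0.37, 0.23 and 0.36), although no litter is stated. The main fit, which gave the SE and adjusted p, did not use these pairs. They entered only the block of an alternative run and the fold values between adjacent animals. The Krt6a SE was 0.63 in the main fit and 0.2 with the block. Alternatives covered the pseudocount, filters, scaling, trend, block and each library left out. The counts without genes tested through 1 group only were added after seeing the data.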

Additional observations from a re-analysis of the deposited data

How the results depend on the processing

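The wound keratin log2 differences kept their direction under every alternative run. Leaving out 1 library at a time gave 10.61 to 11.82 for Krt6a, 10.01 to 11.26 for Krt6b, 6.18 to 7.32 for Krt16 and 4.11 to 4.99 for Krt17. The replicate block of adjacent animal numbers gave differences of 11.29, 10.67, 6.75 and 4.67, with 81 list genes higher and 31 lower, and under it no list gene called in the fit of all libraries lost its call. Leaving out a library gave 49 to 62 higher and 14 to 22 lower list genes. Calls over all tested genes moved too, from 4328 to 5781 with the block and to 2631 to 4464 with a library left out. They were 4505 with equal library totals and 4430 with quantile normalization. With the library labelled knockout 1 alone the higher counts were 5 for the EGF receptor list, 4 for the NRF2 list, 7 for filament partners and 12 for wound edge genes. Quantile normalization gave 35 lower, against 22. With keratin genes as the denominator the share of the wound keratins was 0.396% in controls and 41.8% in the libraries labelled knockout. Leaving out a library gave shares of all counts of 0.0273 to 0.0399% and 3.24 to 5.88%. The lists of nearest profiles shared 0 genes between the measures, for each member. The root mean square difference depends on the size of a change, while Pearson correlation does not. The control values of Krt6a and Krt6b rest on an estimated 28 to 162 reads, which limits the precision of their fold differences.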
